A study of Homo sapiens with 8 samples.

Results

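The cytokine receptor and JAK-STAT genes described here are 10 named genes of NALM6 cells, a human precursor B-cell acute lymphoblastic leukaemia line: the receptor genes IL7R, CRLF2, FLT3, IL6R and IL2RG, the kinase genes JAK1 and JAK2, the transcription factor genes STAT5A and STAT5B, and the inhibitor gene SH2B3. They were found by symbol among 27448 genes of the all-read table, where all 10 had a row, and among 6994 genes of the converted-read table, where 6 had a row. SH2B3 and IL6R had been selected on measured values of these same libraries, a difference in converted reads beside none called in all reads, so their differences in converted and in all reads are given as a description without a test. The other 8 genes were listed by function, with earlier results of these data known.

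All libraries came from NALM6 lines with inducible HMGN1, a nucleosome-binding protein, and all were labelled with 4-thiouridine at 100 µM for the last 5 h of a 6 h culture and read by SLAM-seq. In SLAM-seq, 4-thiouridine incorporated into new RNA is chemically altered so that it is read as a T-to-C conversion, and converted reads therefore mark RNA made during labelling. The induced mutant group was the line with the HMGN1 S20,24E mutant, which does not bind nucleosomes, given doxycycline at 100 ng/ml (2 libraries, A and B). The induced wild-type group was the line with wild-type HMGN1 given the same doxycycline (3 libraries, A to C), and the vehicle group was that wild-type line given vehicle for 6 h (3 libraries, A to C). No vehicle library of the mutant line was analysed here, so the line and the induced protein cannot be told apart in a comparison of induced mutant with vehicle. The labels do not say whether libraries of a group came from separate cultures, and p-values then measure only the spread between these libraries, which may be technical.

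Cytokine receptors of this kind have no kinase of their own. When a ligand joins their chains, the JAK kinases bound to them phosphorylate each other, the receptor and STAT proteins, and the STAT proteins then enter the nucleus and switch on genes of survival and growth. In the B lineage IL7R pairs either with IL2RG to bind interleukin-7 or with CRLF2 to bind TSLP, and in some B-cell leukaemias this pathway is activated by raised CRLF2, by mutations of IL7R or JAK2, or by loss of the brake SH2B3. FLT3 differs in being a receptor tyrosine kinase with its own kinase domain.

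A RefSeq promoter window is shown for each of 3 genes, from 250 bases before to 50 bases after a gene start in GRCh38.p14. SH2B3 and IL6R are shown because they carried the converted-read differences, and IL7R because its window, in contrast, holds no CpG. All 3 are on the plus strand and are printed 5′ to 3′ with CpG dinucleotides in capitals.
SH2B3, chr12:111405673-111405972: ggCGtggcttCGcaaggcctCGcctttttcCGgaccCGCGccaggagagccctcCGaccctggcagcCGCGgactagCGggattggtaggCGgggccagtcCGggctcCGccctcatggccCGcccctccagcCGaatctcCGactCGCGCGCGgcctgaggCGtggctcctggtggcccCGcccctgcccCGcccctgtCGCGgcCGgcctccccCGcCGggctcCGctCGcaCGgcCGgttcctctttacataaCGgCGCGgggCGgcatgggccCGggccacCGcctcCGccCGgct
IL6R, chr1:154405093-154405392: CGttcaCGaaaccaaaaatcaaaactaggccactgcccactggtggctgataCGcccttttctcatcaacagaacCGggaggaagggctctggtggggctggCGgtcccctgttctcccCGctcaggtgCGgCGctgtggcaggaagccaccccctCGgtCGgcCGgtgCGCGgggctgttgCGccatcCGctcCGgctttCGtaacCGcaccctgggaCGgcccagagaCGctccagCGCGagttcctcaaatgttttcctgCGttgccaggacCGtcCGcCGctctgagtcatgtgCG
IL7R, chr5:35856641-35856940: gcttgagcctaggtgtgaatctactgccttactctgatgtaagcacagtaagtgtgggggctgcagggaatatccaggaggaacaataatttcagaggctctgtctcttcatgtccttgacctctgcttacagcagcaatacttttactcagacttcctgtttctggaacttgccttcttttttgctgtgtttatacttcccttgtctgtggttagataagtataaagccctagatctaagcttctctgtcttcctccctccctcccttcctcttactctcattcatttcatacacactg
The printed SH2B3 window held 40 CpG at 76.7% GC, the IL6R window 27 CpG at 64% GC and the IL7R window 0 CpG at 44.3% GC, where the median of 35116 RefSeq windows was 14 CpG at 58.7% GC. SH2B3 has another start, whose window is not printed and held 4 CpG at 40.7% GC. A window was found for 9 of the 10 genes, 17 windows in all, since some genes have several starts. The STAT motif TTCNNNGAA, which reads the same on both strands, stood in 0 of these 17 windows and in 7.66% of all windows. Its form TTCCNGGAA, a subset of the same matches, stood in 0 of 17 and in 1.15% of all windows. The ETS-type motif CCGGAAG, searched on both strands, stood in 2 of the 17 windows, of IL2RG and JAK1, and in 10.3% of all windows.

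The libraries held 10.4 and 11.6 M reads in induced mutant cells, 7.99 to 14.4 M in induced wild-type cells and 8.89 to 17.7 M in vehicle cells (M for mega), as recovered from the deposited values. HMGN1 itself averaged 211 ± 16.7 CPM in induced mutant, 262 ± 51.0 CPM in induced wild-type and 163 ± 24.4 CPM in vehicle libraries (SD, n = 2, 3 and 3). Both induced groups lay above the vehicle libraries without overlap, at 200 to 223 and 217 to 317 CPM against 145 to 191 CPM. The share of all genes that lay higher in this way in all reads is not given here. HMGN1 conversion was 4.64% and 2.0% in induced mutant, 4.09%, 3.24% and 7.12% in induced wild-type and 1.04%, 1.66% and 1.69% in vehicle libraries, again without overlap. Of 8737 genes tested in conversion, 5.3% lay higher without overlap in induced mutant than vehicle and 4.66% in induced wild type than vehicle. HMGN1 converted reads, 4.15 and 2.62 FPKM in induced mutant, 4.94 to 7.75 FPKM in induced wild-type and 2.64 to 6.04 FPKM in vehicle libraries, overlapped between each induced group and vehicle. After adjustment over all genes the differences did not pass (limma, lowest adjusted p 0.993 for all reads, 0.815 for converted reads and 0.928 for conversion; for induced wild type against vehicle unadjusted p 0.00292 and 0.00187). The precursor B-cell markers were present, with 11 of 11 at a mean of at least 1 CPM and summed levels of 1554 to 1693, 1670 to 1837 and 1760 to 1837 CPM in the 3 groups in that order. Of the T-cell markers 0 of 5 reached 1 CPM, of the erythroid 0 of 3, of the stromal and epithelial 0 of 3 and of the NK 1 of 4 (NKG7, mean 2.15 CPM). Of the myeloid markers 3 of 6 did, with CSF1R, the receptor for the macrophage growth factor, at a mean of 415 CPM and CD14 at 0.387 CPM. The myeloid sum was 344 to 431 CPM in induced mutant, 365 to 440 CPM in induced wild-type and 422 to 517 CPM in vehicle libraries, and its part in the results was not tested. Nearly all of this sum was CSF1R, at 338 to 512 CPM over all libraries, while CD33 and LYZ averaged 2.60 and 1.47 CPM. In bulk RNA, fewer cells of a type and less RNA per cell cannot be told apart.

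Total RNA of the 10 genes covered a wide range, and none of the 8 tested passed between groups. SH2B3 and IL6R are among these 8 and had been selected for no call in all reads. Per kilobase of exon, the level over the 8 libraries was highest for IL2RG, the common gamma chain, at a mean of 18.9 CPM per kb (range 12.8 to 23.4). IL7R, the interleukin-7 receptor alpha chain, followed at 7.29 (4.86 to 11.1), then JAK1 at 3.61 (2.12 to 6.66), STAT5B at 2.94 (2.35 to 4.05), IL6R at 2.75 (1.96 to 3.62), SH2B3 at 1.89 (0.707 to 3.21) and JAK2 at 1.12 CPM per kb (0.596 to 1.51). The lowest were STAT5A at 0.26 (0.197 to 0.379), FLT3 at 0.101 (0 to 0.17) and CRLF2 at 0.0757 CPM per kb (0.0344 to 0.177). In this order the ranges of neighbours were separate between IL2RG and IL7R, between JAK2 and STAT5A and between STAT5A and FLT3, and overlapped at every other step. The CRLF2 value counts 1 of its 2 listed copies, so its place below FLT3 is not settled. The exon lengths are of a GENCODE transcript matched to the RefSeq transcript used for each gene. Transcripts of different length carried identical values in the deposited data, so the order is only as good as that choice. The region counted is not known either, and division by exon length holds only if the whole transcript was counted. Without that division IL7R, at a mean of 33.7 CPM, stood above IL2RG at 28.9 CPM.

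**Figure D1:**
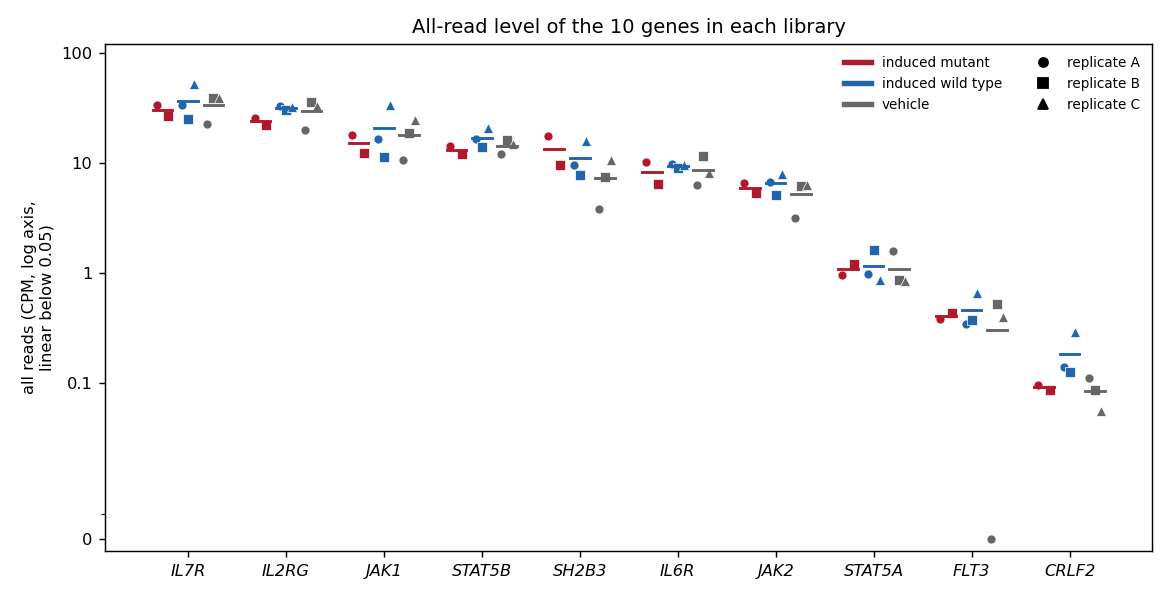
All-read level (CPM, log axis, linear below 0.05) of the 10 genes in each of the 8 libraries, with induced mutant left, induced wild type in the middle and vehicle right; horizontal bars are group means. Among the 8 genes tested, groups overlap except for IL2RG between induced mutant (22.2 to 25.7 CPM) and induced wild type (30.2 to 32.6 CPM). CRLF2 rests on 1 to 4 reads a library of the listed copy used, and FLT3 is at 0 in vehicle A.

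Of the receptors, IL7R had 33.6 and 26.5 CPM in induced mutant, 33.4, 25 and 51.4 CPM in induced wild-type and 22.5, 38.6 and 38.7 CPM in vehicle libraries A to C. Induced wild type C stood highest and vehicle A lowest, and all groups overlapped. The log2 difference was -0.11 ± 0.32 (SE) for induced mutant against vehicle, 0.11 ± 0.28 for induced wild type relative to vehicle and -0.23 ± 0.32 for induced mutant against induced wild type, on log2(CPM + 1) (limma, adjusted p 0.993 or above in each).

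IL2RG, which IL7R shares with the receptors for several other interleukins, had 25.7 and 22.2 CPM in induced mutant, 32.6, 30.2 and 32.2 CPM in induced wild-type and 19.7, 35.9 and 33.0 CPM in vehicle libraries. Both mutant libraries lay below all induced wild-type libraries, and the vehicle libraries spanned both. Among all 12478 genes tested 13.2% lay lower in this way, and the difference of -0.39 ± 0.24 (SE) did not pass (limma, adjusted p 1.00). IL6R, the alpha chain that binds interleukin-6 and signals with gp130, had 10.1 and 6.46 CPM in induced mutant, 9.73, 9.02 and 9.49 CPM in induced wild-type and 6.30, 11.6 and 8.06 CPM in vehicle libraries, with overlap between all groups.

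CRLF2 and FLT3 were near the limit of detection. CRLF2, the TSLP receptor chain, lies in the region shared by the X and Y chromosomes and was listed as 2 copies. The copy used here had 1 and 1 reads in induced mutant, 2, 1 and 4 reads in induced wild-type and 1, 1 and 1 reads in vehicle libraries. The level of this copy was thus at most 0.29 CPM, reached in induced wild type C, and that of both copies together can be higher. The other copy had 3 and 1 reads in induced mutant, 0, 1 and 3 in induced wild-type and 1, 1 and 0 in vehicle libraries, so the order of the groups differed between the copies. FLT3, the receptor of early haematopoietic progenitors, had 4 and 5 reads in induced mutant, 5, 3 and 9 in induced wild-type and 0, 6 and 7 in vehicle libraries. The 0 of vehicle A allows up to 0.337 CPM (3 reads, counting error only), which lies below the other vehicle libraries at 0.521 and 0.394 CPM. Both genes were below the filter of a mean of 1 CPM and were not tested, and no difference was detectable at this depth.

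JAK1, the kinase bound to IL7R and to the interleukin-6 receptor complex, had 17.9 and 12.4 CPM in induced mutant, 16.6, 11.4 and 33.6 CPM in induced wild-type and 10.7, 18.6 and 24.7 CPM in vehicle libraries. Within induced wild type alone its level ranged almost as widely as over all libraries. JAK2, the kinase bound to CRLF2, had 6.56 and 5.34 CPM in induced mutant, 6.74, 5.13 and 7.97 CPM in induced wild-type and 3.15, 6.16 and 6.25 CPM in vehicle libraries. Its log2 difference was 0.21 ± 0.32 (SE) for induced mutant against vehicle and 0.33 ± 0.28 for induced wild type against vehicle (limma, adjusted p 0.993 or above), with vehicle A lowest and overlap between all groups. JAK1 is overlapped by 7 other genes of the RefSeq table and JAK2 by 17, mostly pseudogenes, and reads of such partners could not be separated here.

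The STAT5 genes, which carry the signal of IL7R and CRLF2 into the nucleus, differed from each other in level, and no difference between groups passed the test for either. STAT5B had 14.3 and 12 CPM in induced mutant, 16.4, 13.9 and 20.7 CPM in induced wild-type and 12, 16 and 14.7 CPM in vehicle libraries. STAT5A had 0.964 and 1.21 CPM in induced mutant, 0.973, 1.63 and 0.869 CPM in induced wild-type and 1.57, 0.868 and 0.845 CPM in vehicle libraries. Per kilobase of exon STAT5B was above STAT5A in every library. The genes are near-identical in parts, start 11048 bases apart and overlap in the RefSeq table, so reads that could be split between them make the levels of both uncertain. Largest of their log2 differences was that of STAT5B for induced mutant against induced wild type, -0.34 ± 0.23 (SE; limma, adjusted p 1.00).

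In all reads 8 of the 10 genes were tested and 0 passed in any comparison (limma, Benjamini-Hochberg adjustment over all genes), against 0.0321% of 12478 genes for induced mutant against vehicle, 0% for induced wild type relative to vehicle and 0.0321% for induced mutant against induced wild type. At an unadjusted p under 0.05 the count over the 10 genes was also 0 in each comparison, and edgeR and DESeq2 on the recovered reads called 0 of them. SH2B3 and IL6R had been selected for no call in all reads, so their part of these zeros was set by that selection. Only the other tested genes inform the counts, and these were listed by function with earlier results of these data known. Over all genes edgeR called 0.0373%, 0.0149% and 0.0224% and DESeq2 0.48%, 0.00887% and 0.0532% in the same order of comparisons. The median log2 difference of the 8 genes was -0.08, 0.14 and -0.21 in that order of comparisons, beside medians of -0.04, 0.09 and -0.12 over all genes tested. Vehicle A was the lowest library for 6 of the 8 genes and for 45.6% of all genes, and induced wild type C the highest for 4 of the 8 and for 52.9% of all genes. The part of these libraries in the differences was not tested beyond leaving each out.

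Conversion, the share of T positions read as C in a gene's reads, ranged more widely between genes than between the groups of a gene. Among the 7 genes with a mean of at least 5 CPM, JAK2 was highest with a mean of 8.87% over the 8 libraries, above 88.3% of the 8737 genes at this level. SH2B3 followed at 8.65% and IL7R at 7.79%, above 86.1% and 74.8% of genes. JAK1 at 5.41% and STAT5B at 4.42% lay in the middle and lower range, and IL6R at 3.51% and IL2RG at 2.33% were above 19.8% and 11% of genes. The median gene was at 6.24%, with quartiles of 4.08% and 7.80%. Receptor chains thus differed, with IL7R near the upper quartile and IL2RG below the lower quartile, although their all-read levels were the 2 highest of the receptors.

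IL7R had a conversion of 8.11% and 6.05% in induced mutant, 8.20%, 7.30% and 9.0% in induced wild-type and 7.25%, 7.71% and 8.67% in vehicle libraries. IL2RG had 2.66% and 1.53% in induced mutant, 3.0%, 1.74% and 3.17% in induced wild-type and 1.47%, 1.97% and 3.08% in vehicle libraries. The highest IL2RG library was below the lowest IL7R library, and within each gene the groups overlapped. JAK2 had 9.49% and 8.27% in induced mutant, 8.88%, 8.49% and 9.68% in induced wild-type and 8.05%, 9.12% and 8.96% in vehicle libraries. SH2B3 had 9.06% and 6.73% in induced mutant, 9.46%, 7.29% and 10.2% in induced wild-type and 7.76%, 9.45% and 9.24% in vehicle libraries, with all groups overlapping.

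STAT5B was the only 1 of the 7 genes whose vehicle libraries all lay below both other groups. It had 5.11% and 4.14% in induced mutant, 4.47%, 4.54% and 6.01% in induced wild-type and 3.29%, 4.09% and 3.72% in vehicle libraries. Its difference was 0.92 ± 0.87 points (SE) for induced mutant against vehicle and 1.31 ± 0.77 points for induced wild type against vehicle, and neither passed (limma, adjusted p 1.00 and 0.928). Of all genes 5.3% and 4.66% lay higher without overlap in these 2 comparisons. IL6R, at 3.20% and 3.30% in induced mutant and 3.45%, 3.88% and 3.72% in induced wild-type libraries, was lower without overlap in that comparison, as were 8.17% of all genes, while its vehicle libraries at 3.71%, 3.52% and 3.26% overlapped both.

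In conversion 0 of the 7 genes passed in any comparison (limma), against 0.0343% of 8737 genes for induced mutant against vehicle, 0% for induced wild type relative to vehicle and 0.0114% for induced mutant against induced wild type; at an unadjusted p under 0.05 the count was also 0 of 7 in each. The median difference of the 7 genes was -0.08, 0.31 and -0.52 points in that order, where all genes had medians of 0.16, 0.53 and -0.32 points. Induced wild type C was highest for 6 of the 7 genes and for 48.0% of all genes, and vehicle A lowest for 4 of the 7 and for 50.6%.

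**Figure D2:**
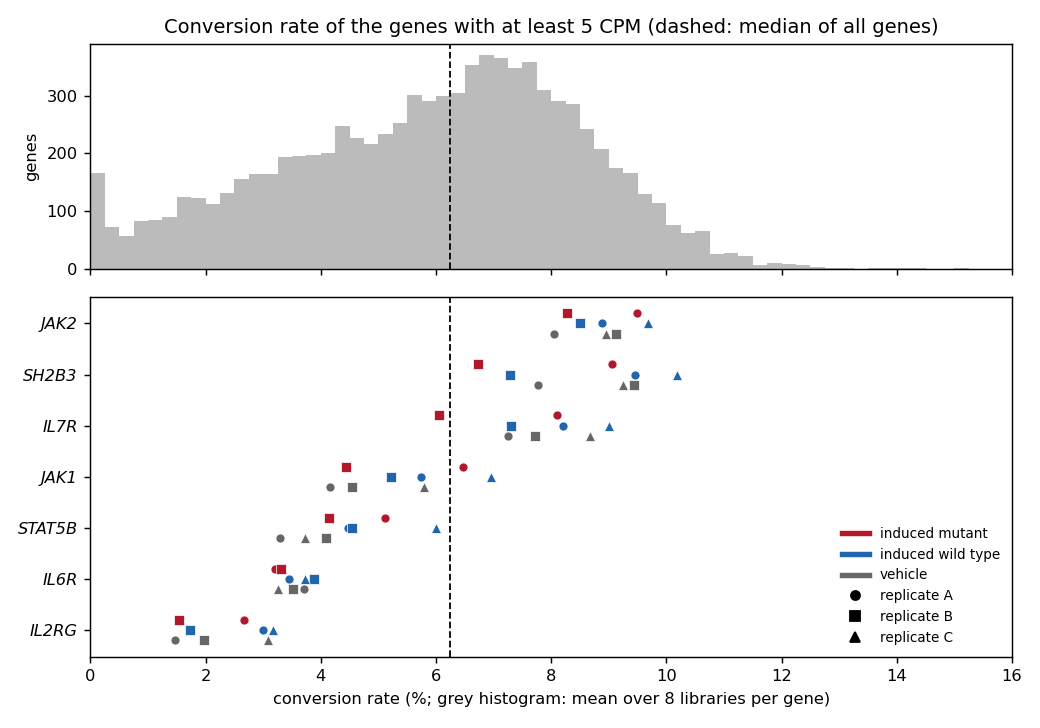
Top, number of genes of at least 5 CPM by mean conversion over the 8 libraries (percent of T positions read as C) and with the median dashed; bottom, the conversion of the 7 of the 10 genes at this level in each library, with induced mutant above, induced wild type in the middle and vehicle below. JAK2, SH2B3 and IL7R lie above the median of 6.24%, and IL6R and IL2RG lie below the lower quartile of 4.08%.

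SH2B3, the adaptor also called LNK that restrains JAK2 signalling, had the most converted reads of the 10 genes in induced mutant cells. Converted values were 14.54 and 9.45 FPKM in induced mutant, 4.00, 6.84 and 6.96 FPKM in induced wild-type and 0.53, 1.59 and 2.27 FPKM in vehicle libraries. The 3 groups did not overlap, and stood in the order induced mutant, induced wild type, vehicle. The means were 12 ± 3.60, 5.93 ± 1.68 and 1.46 ± 0.877 FPKM (SD, n = 2, 3 and 3), a ratio of 8.20 for induced mutant to vehicle, 4.05 for induced wild type to vehicle and 2.02 for induced mutant to induced wild type. The log2 differences of 2.44, 1.53 and 0.91 on log2(FPKM + 1) in the same order stand beside medians of 0.17, 0.23 and -0.04 over all 5738 genes tested.

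The deposited FPKM of converted reads lay near whole multiples of a step in each library, and the step is taken here as the worth of 1 converted read. SH2B3 then had 49 and 29 steps in induced mutant, 18, 14 and 34 in induced wild-type and 1, 5 and 13 in vehicle libraries. The values in vehicle cells thus rested on few reads, and vehicle A on a single step. In all reads SH2B3 had 180 and 110 reads in induced mutant, 138, 62 and 216 in induced wild-type and 34, 85 and 190 in vehicle libraries.

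As CPM these all reads were 17.4 and 9.48 in induced mutant, 9.59, 7.76 and 15.7 in induced wild-type and 3.82, 7.38 and 10.7 in vehicle libraries, with overlap between all groups. The mean all-read levels were 13.4 ± 5.57, 11 ± 4.13 and 7.30 ± 3.44 CPM (SD, n = 2, 3 and 3), and the log2 differences were 0.83, 0.57 and 0.26 for induced mutant against vehicle, induced wild type against vehicle and induced mutant against induced wild type. Steps per 100 reads were 27.2 and 26.4 in induced mutant, 13.0, 22.6 and 15.7 in induced wild-type and 2.98, 5.89 and 6.83 in vehicle libraries. Over 6081 genes with at least 50 reads in every library the median was 4.35 and 2.77 in induced mutant, 3.31, 2.82 and 4.71 in induced wild-type and 1.59, 2.77 and 3.41 in vehicle libraries. SH2B3, which is outside that set with 34 reads in vehicle A, was above its 90th percentile in both induced mutant libraries, 15.1 and 11.8, and in all induced wild-type libraries, 11.8, 11.6 and 14.8. It was below the 90th percentile, 9.09 to 11.8, in all vehicle libraries. Steps per 100 reads were computed after seeing the data and hold the converted values on which SH2B3 was selected. These places are thus a description and no support for a difference.

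The conversion of SH2B3, given above, did not follow this order: the 9.06% of mutant A lay within the range of the other 6 libraries, and the 6.73% of mutant B below it. Conversion is counted over positions of all reads in 1 table and converted reads are counted in another, and no source used here gives the regions counted in them.

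IL6R showed the reverse pattern in induced mutant cells. It was listed at 0 FPKM of converted reads in both induced mutant libraries, against 3.33, 7.80 and 4.72 FPKM in induced wild-type and 5.76, 4.76 and 2.63 FPKM in vehicle libraries. Counted as steps these were 0 and 0, against 15, 16 and 23 in induced wild-type and 11, 15 and 15 in vehicle libraries. The other 6 libraries thus all had converted reads, and the induced wild-type and vehicle groups overlapped. If a step is 1 converted read, the zeros allow up to 0.890 and 0.975 FPKM (3 reads, counting error only), below the lowest of the other libraries. No fold is given against a group listed at 0, and the fitted differences of IL6R on log2(FPKM + 1) are set by the added 1 and are neither folds nor bounds.

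The mutant libraries held 105 and 75 IL6R reads in all, beside 140, 72 and 131 in induced wild-type and 56, 134 and 143 in vehicle libraries. They also had a conversion of 3.20% and 3.30%, so converted positions were present in IL6R reads of the same libraries in which no converted read was listed. This mismatch was not particular to IL6R. In induced mutant B, IL7R had 307 reads at 6.05% conversion and STAT5B 139 reads at 4.14%, each with 0 FPKM of converted reads. Of the 6 libraries outside the mutant group, those of induced wild type had 10.7, 22.2 and 17.6 IL6R steps per 100 reads and those of vehicle 19.7, 11.2 and 10.5. IL6R was thus above the 90th percentile in induced wild type B and C and vehicle A and B. It was below that percentile in induced wild type A and vehicle C. IL6R is overlapped by the antisense gene IL6R-AS1 and a pseudogene, and no source used here says whether strand was used in counting.

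**Figure D3:**
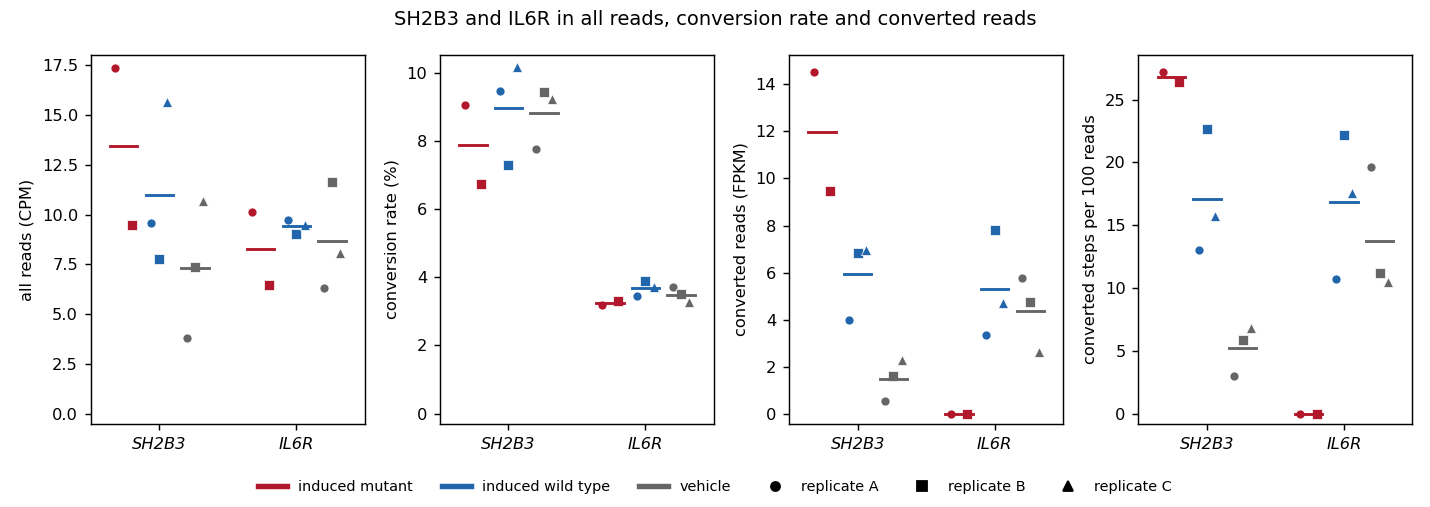
SH2B3 and IL6R in each library as all reads (CPM), conversion (percent), converted reads (FPKM) and converted steps per 100 reads, with induced mutant left, induced wild type in the middle and vehicle right and group means as bars. Converted reads of SH2B3 separate the 3 groups and those of IL6R are at 0 in both mutant libraries, while all reads of both genes overlap between groups.

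The other 3 genes tested in converted reads overlapped between all groups. IL7R had 1.48 and 0 FPKM in induced mutant, 2.20, 1.48 and 3.51 FPKM in induced wild-type and 0.52, 1.58 and 1.72 FPKM in vehicle libraries. JAK1 had 4.74 and 2.93 FPKM in induced mutant, 3.56, 2.93 and 6.16 FPKM in induced wild-type and 1.05, 3.18 and 3.85 FPKM in vehicle libraries. IL2RG had 2.08 and 1.30 FPKM in induced mutant, 2.67, 2.93 and 1.43 FPKM in induced wild-type and 0.52, 1.91 and 2.63 FPKM in vehicle libraries. Their log2 differences for induced mutant against vehicle were -0.48 ± 0.50 for IL7R, 0.46 ± 0.46 for JAK1 and 0.08 ± 0.48 for IL2RG (SE; limma, lowest adjusted p 0.778). IL7R was farthest from 0 of these genes for induced mutant against induced wild type, -1.07 ± 0.50 (SE; limma, adjusted p 1.00). With 5 and 0 steps in induced mutant and 10, 3 and 17 in induced wild type, this difference rests on few reads and partly on the added 1. In vehicle A, IL7R and IL2RG had 1 step each and JAK1 had 2. STAT5B, at 1.19 and 0 FPKM in induced mutant, 0.67, 0.48 and 2.45 FPKM in induced wild-type and 0.52, 0.63 and 1.23 FPKM in vehicle libraries, was below the filter of a mean of 1 FPKM. For CRLF2, FLT3, JAK2 and STAT5A no converted-read row was found, which for JAK2 contrasts with its conversion of 8.87%.

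The fit over all genes held 5 of the 10 in converted reads, and 2 lay past its threshold for induced mutant against vehicle, SH2B3 higher and IL6R lower, which is no test of either, beside 0.401% of 5738 genes (0.383% higher and 0.0174% lower). Of the precursor B-cell markers, 1 of 10 tested, PAX5, also rose in converted reads for this comparison, by 1.79 on the log2 scale (limma, adjusted p 0.0445), and its part in the result was not tested. Of these 10 markers 5 lay above 0 and 5 below, with a median of 0.07 beside 0.17 over all genes. As SH2B3 and IL6R were selected on this contrast, nothing is read from their count of 2. In the comparison of induced wild type with vehicle limma called 0 of 5, beside 0% of all genes and 455 genes at an unadjusted p under 0.05. In that of induced mutant with induced wild type it also called 0 of 5, beside 0% and 169 genes. Without overlap, SH2B3 was higher in induced mutant than vehicle with 20.4% of all genes, in induced wild type than vehicle with 10.7% and in induced mutant than induced wild type with 5.18%. IL6R was lower without overlap in induced mutant than vehicle with 7.81% of all genes and than induced wild type with 11.8%. Both fell short of the threshold when either mutant library or vehicle B was left out, with only the compared groups in the fit, or without its mean-variance trend, SH2B3 also with a pseudocount of 0.1, and IL6R also when induced wild type A was left out.

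**Figure D4:**
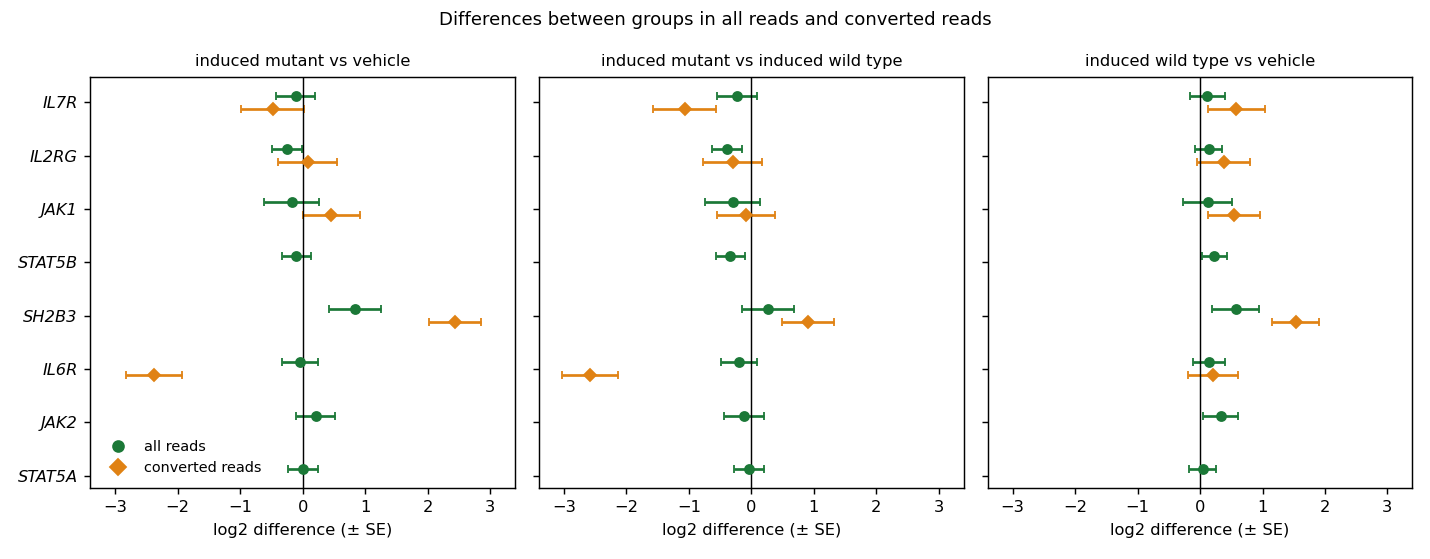
Log2 differences (± SE) of the tested genes in all reads (circles) and converted reads (diamonds), with a panel for each comparison; the first-named group is higher to the right of 0. SH2B3 at 2.44 and IL6R at -2.38 for induced mutant against vehicle in converted reads stand farthest from 0 in that panel; both were selected on these values, and the place of IL6R is set by the added pseudocount.

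The 3 genes with the most similar converted-read profile over the 8 libraries, by Pearson's r of log2(FPKM + 1) among 5738 genes, were INO80D (r = 0.99), ARID3A (0.99) and SS18L1 (0.98) for SH2B3. For IL6R they were LSS, COX5B and MAMDC4 (0.93 each). In induced mutant libraries LSS had 39.5 and 41.0 FPKM and MAMDC4 2.67 and 1.63 FPKM, so neither shared the zeros of IL6R. COX5B had 0.28 and 0 FPKM there. These correlations share the 8 libraries and their depths and are a description.

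The rest of the pathway was read from lists of ligands, receptors, kinases, STAT proteins, inhibitors and targets, and 0 of their genes passed in any of the 3 measures or comparisons (limma). In all reads 2 of 23 ligands were tested, 17 of 31 other cytokine receptors, 3 of 4 class III receptor tyrosine kinases, both remaining JAK kinases, 5 of 5 STAT genes, 18 of 21 inhibitors and 11 of 15 STAT5 targets and survival genes. For induced mutant against vehicle the median log2 difference in all reads was -0.04 for the other receptors, 0.06 for the inhibitors and 0.07 for the targets, beside -0.04 over all genes.

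FLT3LG, the ligand of FLT3, averaged 1.23 ± 0.03 CPM in induced mutant, 1.21 ± 0.33 CPM in induced wild-type and 1.14 ± 0.16 CPM in vehicle libraries (SD, n = 2, 3 and 3). IL7, the ligand of IL7R, averaged 0.429 ± 0.485, 1.52 ± 0.961 and 1.13 ± 0.611 CPM in that order, so both ligand genes were near the filter. TYK2 averaged 52.5 ± 3.72 CPM in induced mutant, 73.4 ± 7.88 CPM in induced wild-type and 71.0 ± 16.4 CPM in vehicle libraries, and JAK3, the kinase bound to IL2RG, 18.0 ± 0.115, 21.8 ± 2.87 and 19.0 ± 3.22 CPM. STAT6, which carries the interleukin-4 signal, was the highest of the STAT genes at 42.7 ± 9.57, 53.3 ± 14.1 and 49.1 ± 17.2 CPM.

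PTPN6, the phosphatase SHP-1 that removes phosphate from JAK kinases and receptors, averaged 79.2 ± 4.87 CPM in induced mutant, 92.9 ± 6.96 CPM in induced wild-type and 88.7 ± 18.7 CPM in vehicle libraries. Of the target list, CCND3, a cell-cycle cyclin, averaged 97.3 ± 3.99, 115 ± 5.64 and 112 ± 11 CPM, MYC 50.9 ± 4.17, 61.4 ± 13.5 and 63.7 ± 23.6 CPM, and the survival gene MCL1 32.1 ± 9.50, 38.7 ± 16.9 and 34.1 ± 9.56 CPM. PDGFRA, a class III receptor tyrosine kinase, averaged 26.4 ± 6.73 CPM in induced mutant, 50.4 ± 19.1 CPM in induced wild-type and 44.1 ± 14.2 CPM in vehicle libraries. CSF2RB, the beta chain shared by interleukin-3, interleukin-5 and GM-CSF receptors, averaged 8.88 ± 3.67, 13.3 ± 7.26 and 11.2 ± 5.94 CPM. For all of these genes the group difference did not pass the test.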

How the data were processed

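RNA of 8 NALM6 SLAM-seq libraries in 3 groups was used; groups and replicate letters came from the labels. The 10 genes and the pathway lists were chosen with earlier results of these data known. Genome build was hg19 (GRCh37), per the submitters' processing notes; for the aligner, the conversion caller, the region counted and any use of strand, nothing was given in the sources used here.

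All reads were deposited as a signal per transcript that the authors call CPM; 100% of values were whole multiples of 1 read within 0.1 read. The conversion columns, per the file headers, were deposited as a fraction, printed here as percent; 1339 to 1824 transcripts per library with a single read had a rate strictly between 0 and 100%, so positions and not reads were counted. Converted reads were deposited by the authors as FPKM per transcript; 47 of 48 values of the 6 genes lay within 0.15 of a whole step. Steps per 100 reads were computed after seeing the data.

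Each gene took its transcript row with the highest mean. Of 61177 all-read rows, 25396 had no symbol and 24846 of these were named by accession through RefSeq. The main test was limma 3.58.1 (R 4.3.3) with a mean-variance trend, on log2(CPM + 1) (mean of at least 1 CPM), log2(FPKM + 1) (mean of at least 1 FPKM) and conversion percent (mean of at least 5 CPM), with all 8 libraries in a single fit, Benjamini-Hochberg adjustment over all genes tested and a threshold of 0.05. Fold changes of low genes are understated on these scales. The trend setting follows the earlier processing of these data. Alternatives included edgeR 4.0.16 and DESeq2 1.42.0 on recovered reads. The fits were tested on simulated data. Depth was 7.99 to 17.7 M reads. The upper limits given for zeros cover counting error only, while SD and SE measure the spread between libraries. Named genes were the 10 genes, the 3 of each list with the highest mean CPM and, for SH2B3 and IL6R, the 3 with the most similar converted reads; of the genes so chosen, IL11, GHR, IL10RB, CSF1R, PDGFRB, STAT2, STAT3, PTPN1 and PTPN11 are summarised within their lists.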

Additional observations from a re-analysis of the deposited data

How the results depend on the processing

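In all reads and conversion the count of the 10 genes called stayed at 0 under every alternative run, for all 3 comparisons, as it did in converted reads for induced wild type against vehicle. In all reads SH2B3 and IL6R had been selected for no call, so their part of that 0 is no result. In converted reads for induced mutant against vehicle, where 2 were called (SH2B3 and IL6R), leaving out a library gave 0 to 2: 0 without mutant A, mutant B or vehicle B, and 1, SH2B3, without induced wild type A. The count was 0 with only the 2 groups compared, 0 without the mean-variance trend, 1 (IL6R) with a pseudocount of 0.1, and 1 (SH2B3) with a filter at a mean of 5 FPKM, which IL6R did not pass. For induced mutant against induced wild type, 0 in the reported fit, leaving out a library gave 0 to 1, with 1 (IL6R) without vehicle A, and the count was 1 (IL6R) with only the 2 groups compared and 1 (IL6R) with a pseudocount of 0.1. Both genes were selected on this contrast, so these counts are no support for either. Across these alternatives the difference of SH2B3 for induced mutant against vehicle lay between 2.13 and 3.12 on the log2 scale, with 2.17 when library medians were set equal. The fitted difference of IL6R is set by the pseudocount, at -2.38 with 1 and -5.42 with 0.1, and is no fold. The cause of these changes was not tested.

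Counts over all genes in converted reads for induced mutant against vehicle, 23 in the reported fit (22 higher, 1 lower), were 0 to 68 when a library was left out, 2 with only the 2 groups compared, 41 with medians set equal (32 higher, 9 lower), 93 with quantile normalization (80 higher, 13 lower), 1 with a pseudocount of 0.1 and 0 without the trend. In all reads 4 became 0 to 13, 7 with only the 2 groups, 2 with a filter at a mean of 5 CPM, 50 in edgeR without a filter and 62 in DESeq2 for induced mutant against vehicle, and 4 became 0 to 4 and, in DESeq2, 12 for induced mutant against induced wild type. For induced wild type against vehicle edgeR and DESeq2 called 2 each. In conversion 3 became 0 to 8, and 1 became 0 to 8, in the comparisons of induced mutant with vehicle and with induced wild type.

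The replicate letters were not used as pairs in the main fit. Same-letter deviations of induced wild type and vehicle in all reads correlated at 0.29, -0.36 and 0.65 for A, B and C. In conversion they correlated at -0.05, 0.10 and 0.11. Pairs of different letters ranged from -0.70 to 0.62 in all reads. Deviations from the mean of so few libraries are tied to each other, so these values cannot decide whether the letters pair libraries. With the letter as a replicate block, converted-read calls over all genes for induced mutant against vehicle were 149, and no count over the 10 genes changed, that of 2 in this comparison included. Depth limits CRLF2, with at most 4 reads a library in the copy used, and FLT3, with at most 9. It also limits converted reads in vehicle A, with 1 step each for SH2B3, IL7R and IL2RG and 2 for JAK1, and those of IL7R in induced mutant B, with 0.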

Other observations

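Among genes of the surrounding pathway, CSF1R and GHR, the growth hormone receptor, had almost no conversion. CSF1R had a mean of 415 CPM, and its conversion averaged 0.012% in induced mutant, 0.0153% in induced wild-type and 0.00841% in vehicle libraries (n = 2, 3 and 3). GHR averaged 13.8 CPM in induced mutant, 17.8 CPM in induced wild-type and 15.2 CPM in vehicle libraries, and its conversion 0.0356%, 0.0554% and 0.0275% in the same order. Of 8737 genes with a mean of at least 5 CPM, 166 (1.90%) had a mean conversion under 0.25%. None of the 10 cytokine receptor and JAK-STAT genes was among them, and the lowest of the 7 at this level was IL2RG at 2.33%. No converted-read row was found for CSF1R or GHR. The source of these reads was not tested.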
